A study of Homo sapiens with 4 samples.

Results

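The mitosis and spindle genes followed here are 48 genes whose products act between the G2 phase and the separation of the daughter cells. They were taken by symbol from a list that covers entry into mitosis, the spindle, the spindle assembly checkpoint, the kinetochore, the chromosomal passenger complex, cytokinesis, anaphase, chromosome structure and 2 transcription factors of the programme. All 48 were found among the 26726 genes listed, and all 48 were among the 15104 genes that passed the filter on low counts. The rule uses symbols alone, but the list was drawn up with earlier results of these data known, so counts over it are not independent evidence of a direction. The same holds for CDK1, which is among the genes that the study named in its heat map, a list that may have been chosen from these same libraries.

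RNA sequencing was carried out on HN12 cells, a cell line of head and neck squamous cell carcinoma (HNSCC), to ask which genes change in expression with the loss of ATAD3A, an ATPase of the mitochondrial inner membrane. Parental HN12 cells (WT, n = 2) were compared with ATAD3A knockout HN12 cells made with CRISPR/Cas9 (ATAD3A KO, n = 2), with independent duplicate cultures of each and no treatment named. The KO cells came from clones grown from single cells, and the clonal origin of the 2 KO libraries is not given in the sources used here, so that effects of ATAD3A loss and differences carried by a clone cannot be told apart. The medium was based on DMEM with fetal bovine serum for both groups, although its formula differs between the labels and the methods.

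Progress into mitosis is driven by CDK1 bound to cyclin A or cyclin B, and the spindle that then forms attaches to chromosomes through kinetochores. Until every kinetochore is attached, checkpoint proteins hold back CDC20 and the anaphase-promoting complex (APC/C), whose activity releases the sister chromatids and destroys cyclin B. The genes for these proteins are transcribed mainly in late S, G2 and M phase under B-MYB, FOXM1 and the DREAM complex, and their summed RNA is widely used as a marker of proliferation in carcinomas.

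The 4 libraries held between 13569971 and 18943547 counts on genes, and the biological coefficient of variation was 5.88%. ATAD3A itself was found at 38.0 and 29.9 CPM (counts scaled to the size of the library with TMM factors) in the KO libraries and at 116 and 106 CPM in the WT libraries, a log2 fold change of -1.70 (SE 0.09, adjusted p = 1.53e-17). Its paralog ATAD3B, with which it can share reads, was higher in KO cells (log2 fold change 0.96, adjusted p = 1.72e-13). All 10 listed squamous keratinocyte markers were detected, and their summed level was 4945 and 4974 CPM in KO cells and 2345 and 2320 CPM in WT cells. KRT5 alone stood at 2464 and 2436 CPM in KO cells and 402 and 390.3 CPM in WT cells, while TP63, DSP and CDH1 were lower in both KO libraries. This list moved with the group, and its part in the results below was not tested. Fibroblast markers summed to between 12.3 and 16.9 CPM, leukocyte markers to between 2.65 and 3.96 CPM and endothelial markers to between 0.852 and 1.84 CPM.

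Most of the mitosis genes were expressed at a lower level in ATAD3A KO cells. Of the 48, 34 (70.8%) were lower and 3 (6.25%) were higher with an adjusted p under 0.05 by edgeR's quasi-likelihood test, and 11 were not called. Among all 15104 genes tested, 19.1% were lower and 20.4% were higher. The median log2 fold change over the 48 genes was -0.30, against -0.004 over all genes tested, and 44 of the 48 genes (91.7%) had a fold change below 0, against 50.4% of all genes. Without CDK1 the median over the other 47 genes was -0.29, and 33 of them were lower. The changes were small in size, with 14 genes lower and 0 higher when the rule of the study's methods was applied to the fit (unadjusted p under 0.05, and a fold under 0.75 for lower genes), where 12.2% and 17.0% of all genes were called. At an unadjusted p under 0.05 with no limit on the fold, 37 of the genes were lower and 3 were higher, against 22.9% and 23.7% of all genes tested.

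Both KO libraries lay below both WT libraries for 41 of the 48 genes, and both lay above for 3, while the groups overlapped for 4 genes (KIF4A, CENPA, FOXM1 and UBE2C). Groups did not overlap in the lower direction for 34.0% and in the higher direction for 34.1% of all genes tested. The summed level of the 48 genes was 6530 and 6728 CPM in the KO libraries and 8503 and 8244 CPM in the WT libraries, which is 0.636% and 0.658% of all counts in KO cells and 0.869% and 0.846% in WT cells. Between the KO replicates the median difference over the 48 genes was -0.03 on the log2 scale, and between the WT replicates it was 0.04. Each of the 4 pairs of a KO and a WT library gave a median between -0.30 and -0.26, so the difference between the groups exceeded that between replicates. In such bulk RNA, fewer cells in G2 and M phase and less of each transcript per cell cannot be told apart.

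**Figure D1:**
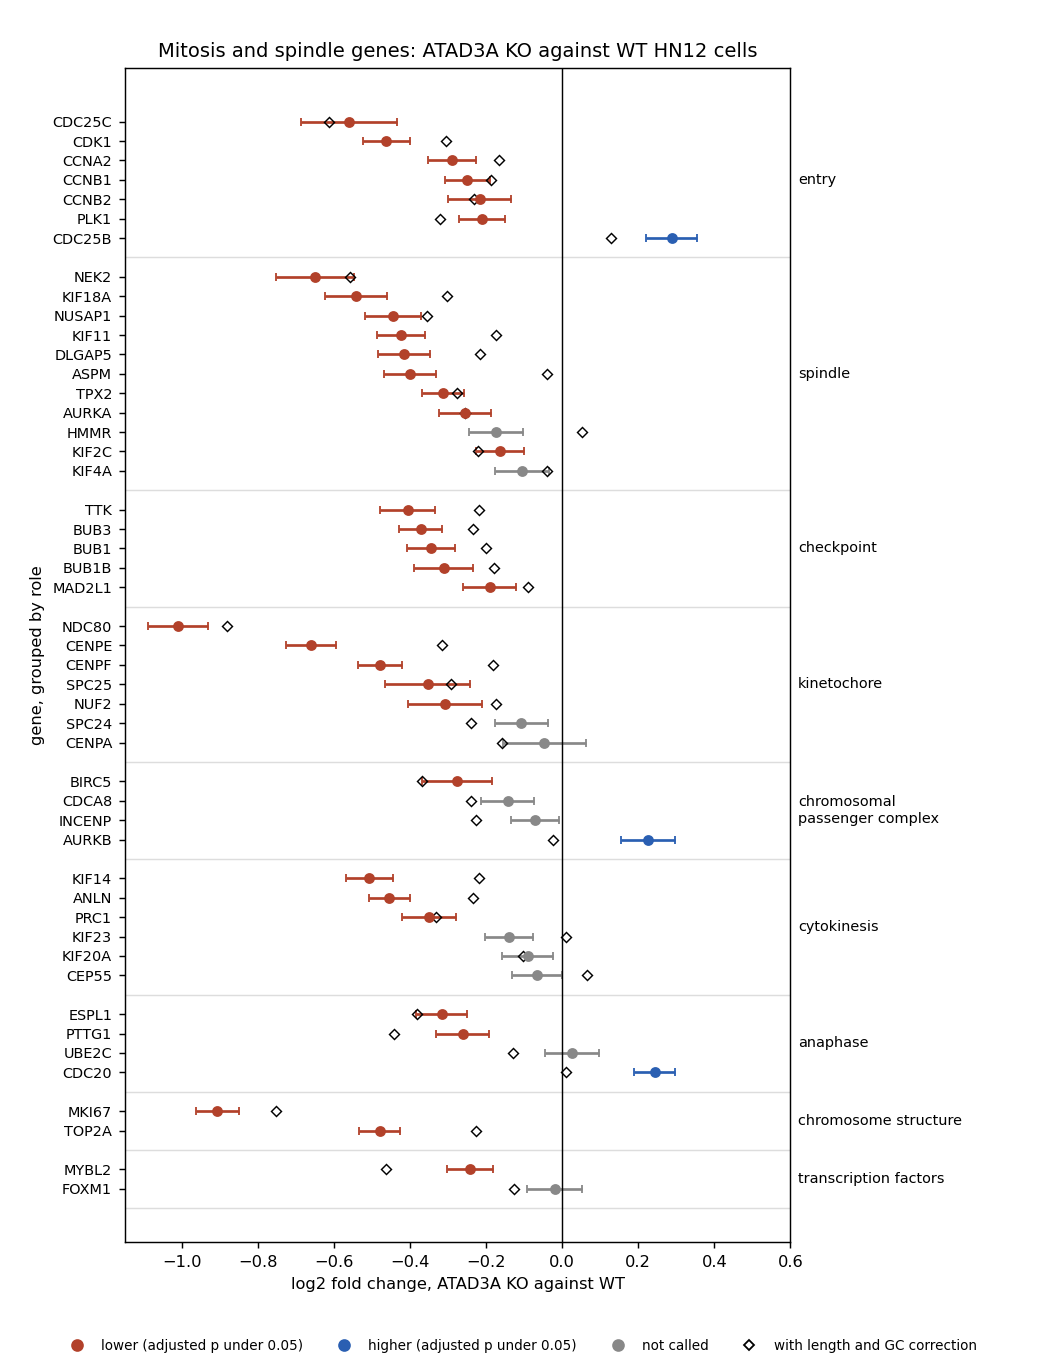
Log2 fold change of each of the 48 mitosis genes in ATAD3A KO against WT HN12 cells (horizontal axis), grouped by role, from edgeR's quasi-likelihood fit over 2 libraries per group. Filled points are the estimates with bars of 1 SE, coloured by the call, and open diamonds are the estimates with offsets for gene length and GC content. Points lie to the left of 0 for 44 genes, and NDC80 and MKI67 lie furthest left at -1.01 and -0.91.

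Both markers of chromosome structure fell. MKI67 (ENSG00000148773), the Ki-67 protein that coats mitotic chromosomes and marks proliferating cells, was found at 435 and 497 CPM in KO cells and 908 and 839 CPM in WT cells. The KO values lay well below the WT values, with a log2 fold change of -0.91 (SE 0.06, adjusted p = 1.39e-15), or 46.6% lower, and it was -0.75 in a fit with offsets for gene length and GC content, obtained from splines for each library (the length and GC correction). TOP2A, the topoisomerase that untangles sister DNA, was found at 489 and 546 CPM in KO cells and 719.6 and 723 CPM in WT cells. Here too the groups did not overlap, and the log2 fold change was -0.48 (SE 0.05, adjusted p = 3.15e-09), or -0.23 after the correction.

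All 7 genes for entry into mitosis were called, 6 of them lower and 1 higher, with a median log2 fold change of -0.25. CDK1, the kinase that drives entry, was found at 173 and 157 CPM in KO cells and 222 and 233 CPM in WT cells (log2 fold change -0.46, SE 0.06, adjusted p = 1.12e-07). CDC25C, a phosphatase that activates CDK1, was found at 17.5 and 18.6 CPM in KO cells and 27.9 and 25.3 CPM in WT cells (log2 fold change -0.56, SE 0.13, adjusted p = 0.000419). For both genes all KO values were below all WT values, and with the length and GC correction CDK1 was at -0.31 and CDC25C at -0.61. The cyclins CCNA2, CCNB1 and CCNB2 were lower by smaller amounts, at -0.29, -0.25 and -0.22 on the log2 scale, and PLK1, a kinase of the mitotic centrosome and kinetochore, was at -0.21. With the correction CCNA2 was at -0.16 and PLK1 at -0.32. CDC25B (ENSG00000101224), another CDK1 phosphatase that acts at the centrosome, was found at 127 and 131 CPM in KO cells and 109 and 101 CPM in WT cells. Its KO values lay above its WT values, with a log2 fold change of 0.29 (SE 0.07, adjusted p = 0.000662), but with the length and GC correction it was 0.13 (adjusted p = 0.109) and no longer called. The call of PLK1 was lost without WT replicate 1 (adjusted p = 0.295), and that of CCNB2 without WT replicate 1, WT replicate 2 or KO replicate 1 (adjusted p = 0.168, 0.128 and 0.103).

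Among the 11 spindle genes, 9 were lower and 2 were not called, and the median log2 fold change was -0.40. With the length and GC correction the median was -0.22, and 8 were lower. NEK2, a centrosome kinase that separates the spindle poles, was found at 12.7 and 12.6 RPKM in KO cells and 21.59 and 19.95 RPKM in WT cells (log2 fold change -0.65, SE 0.10, adjusted p = 2.91e-06). KIF18A, a kinesin that dampens chromosome movements at the metaphase plate, was found at 50.9 and 50.8 CPM in KO cells and 74.6 and 73.4 CPM in WT cells (log2 fold change -0.54, SE 0.08, adjusted p = 1.35e-06). In both the groups were clearly separate, and with the correction NEK2 was at -0.56 and KIF18A at -0.30. KIF11, the kinesin that pushes the spindle poles apart, fell by 0.42 on the log2 scale, from 185 and 175 CPM in WT cells to 128 and 140.3 CPM in KO cells, and was at -0.18 with the correction. The microtubule-associated proteins NUSAP1, DLGAP5 and TPX2 had log2 fold changes of -0.44, -0.42 and -0.31, and AURKA, the kinase that TPX2 activates, had -0.25. Of these, DLGAP5 was at -0.22 with the correction. ASPM, a spindle pole protein, was lower at -0.40 but was at -0.04 (adjusted p = 0.623) with the length and GC correction, which ended its call. HMMR, a microtubule-binding protein of the spindle, was not called, at 84.9 and 93.6 CPM in KO cells and 100.1 and 101 CPM in WT cells (adjusted p = 0.0516, but 0.00816 without KO replicate 2), nor was the chromokinesin KIF4A (log2 fold change -0.10, adjusted p = 0.253). The call of AURKA was lost without WT replicate 1 (adjusted p = 0.271), and that of KIF2C, a kinesin that depolymerises microtubules with a log2 fold change of -0.16, without WT replicate 1, WT replicate 2 or KO replicate 1 (adjusted p = 0.354, 0.0779 and 0.159).

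Each of the 5 spindle assembly checkpoint genes was lower, with a median log2 fold change of -0.34 and a range from -0.41 to -0.19. With the length and GC correction the median was -0.20, and 3 of the 5 were lower, namely TTK at -0.22, BUB1 at -0.20 and BUB3 at -0.23. TTK, the MPS1 kinase that starts checkpoint signalling, was found at 77.7 and 80.4 CPM in KO cells and 102 and 108 CPM in WT cells (log2 fold change -0.41, SE 0.07, adjusted p = 1.67e-05). BUB1, the kinase that gathers checkpoint proteins at the kinetochore, was found at 119 and 119 CPM in KO cells and 152 and 150.2 CPM in WT cells (log2 fold change -0.34, SE 0.06, adjusted p = 2.93e-05). Replicates of BUB1 were close to each other in both groups. BUB3, the adaptor of BUB1 and BUBR1, fell by 0.37, and BUB1B, which encodes BUBR1, fell by 0.31 on the log2 scale. With that correction BUB1B was at -0.18 (adjusted p = 0.0524) and MAD2L1, the MAD2 protein of the complex that inhibits CDC20, was at -0.09 (adjusted p = 0.312), and neither was called. MAD2L1 also lost its call without KO replicate 1 (adjusted p = 0.185) or WT replicate 2 (adjusted p = 0.342).

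Of the 7 kinetochore and centromere genes, 5 were lower and 2 were not called, with a median of -0.35. NDC80 (ENSG00000080986), the HEC1 subunit that binds spindle microtubules, had the most negative fold change of all 48 genes. Its level was 47.8 and 48.9 CPM in KO cells and 95.03 and 99.70 CPM in WT cells, that is about 50.3% lower (log2 fold change -1.01, SE 0.08, adjusted p = 5.28e-13). CENPE, the kinesin that carries chromosomes to the metaphase plate, was found at 124 and 134 CPM in KO cells and 217 and 191 CPM in WT cells (log2 fold change -0.66, SE 0.07, adjusted p = 2.29e-10). CENPF, a large protein of the outer kinetochore, was found at 215 and 234 CPM in KO cells and 321 and 304 CPM in WT cells (log2 fold change -0.48, SE 0.06, adjusted p = 1.62e-08). For these 3 genes the KO and WT values did not overlap. With the length and GC correction the log2 fold change was -0.88 for NDC80, -0.32 for CENPE and -0.18 for CENPF, all still called lower. CENPA, the histone H3 variant of the centromere, was not called, and its groups overlapped at 30.0 and 29.9 CPM in KO cells and 28.9 and 33.0 CPM in WT cells (adjusted p = 0.777).

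NDC80 lies on chromosome 18, where 139 of 195 tested genes were lower in KO cells and 4 were higher, with a median log2 fold change of -0.76. It is the only one of the 48 genes on that chromosome. The part of this shared shift in the fall of NDC80 was not tested. Without NDC80 the median over the other 47 mitosis genes was -0.29, with 33 of them lower.

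The Ndc80 complex is built from one copy each of NDC80, NUF2, SPC24 and SPC25, and their RPKM values, which allow for gene length, were compared within each library. In the WT libraries NDC80 stood at 44.7 and 47.1 RPKM, NUF2 at 23.2 and 23.5, SPC24 at 43.4 and 46.8, and SPC25 at 25.5 and 27.1. In the KO libraries NDC80 stood at 21.5 and 22.0 RPKM, NUF2 at 16.9 and 19.1, SPC24 at 40.4 and 39.3, and SPC25 at 21.3 and 17.8. The ratio of NDC80 to the mean of the other 3 subunits was 1.46 and 1.45 in WT cells and 0.820 and 0.866 in KO cells. Thus NDC80 went from above the mean of its partners to below it, a description for which no test was made. NUF2 was lower (log2 fold change -0.31, adjusted p = 0.011) and so was SPC25 (-0.35, adjusted p = 0.0103), whereas SPC24 was not called (-0.11, adjusted p = 0.237). NUF2 lost its call with the length and GC correction (adjusted p = 0.167) and without WT replicate 1, WT replicate 2 or KO replicate 1 (adjusted p = 0.0606, 0.0625 and 0.123), and SPC25 without WT replicate 2 or KO replicate 2 (adjusted p = 0.0832 and 0.141).

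**Figure D2:**
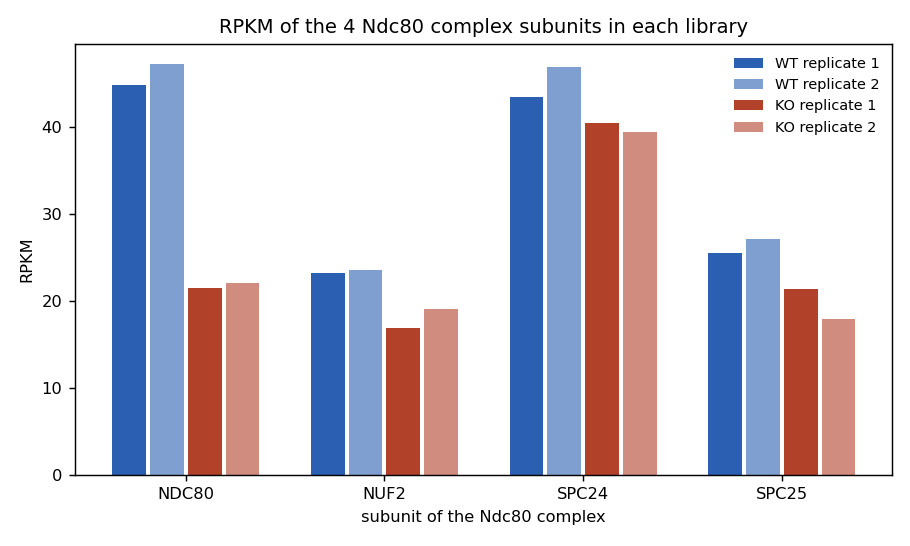
RPKM (vertical axis) of the 4 subunits of the Ndc80 complex in each of the 4 libraries, with one bar per library and no error bars, since every replicate is drawn. The NDC80 bars are at 44.7 and 47.1 in WT and at 21.5 and 22.0 in KO cells, and the SPC24 bars lie between 39.3 and 46.8 in all libraries.

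Of the 4 genes of the chromosomal passenger complex, 1 was lower, 1 was higher and 2 were not called. AURKB (ENSG00000178999), its kinase, which corrects faulty attachments, was found at 139 and 123 CPM in KO cells and 105 and 119 CPM in WT cells. The KO values lay above the WT values by a small margin (log2 fold change 0.23, SE 0.07, adjusted p = 0.0104). That rise was not found with the length and GC correction, which gave -0.02 (adjusted p = 0.81), and its call was also lost without WT replicate 1 (adjusted p = 0.254) or KO replicate 1 (adjusted p = 0.155). BIRC5, or survivin, which targets the complex to the centromere, was lower at 40.8 and 41.7 CPM in KO cells and 47.8 and 52.2 CPM in WT cells (log2 fold change -0.28, SE 0.09, adjusted p = 0.0161), but not without WT replicate 2 (adjusted p = 0.199) or KO replicate 1 (adjusted p = 0.0545). The scaffold INCENP and the subunit CDCA8, or borealin, were not called, with log2 fold changes of -0.07 and -0.14. With the correction both were called lower, at -0.23 and -0.24, as was SPC24 at -0.24.

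Of the 6 cytokinesis genes, 3 were lower and 3 were not called. The KO values were below the WT values for all 6, as they were for 34.0% of all genes tested. For KIF20A the margin was narrow, at 108.9 and 109.4 CPM in KO cells and 122 and 110.5 CPM in WT cells. KIF14, a kinesin of the midbody, was found at 173 and 196 CPM in KO cells and 271 and 254 CPM in WT cells (log2 fold change -0.51, SE 0.06, adjusted p = 1.90e-08). ANLN, the anillin scaffold of the contractile ring, was found at 326 and 354 CPM in KO cells and 468 and 463 CPM in WT cells (log2 fold change -0.45, SE 0.05, adjusted p = 1.41e-08). With the length and GC correction both were still lower, KIF14 at -0.22 and ANLN at -0.23. PRC1, which bundles the central spindle, fell by 0.35 on the log2 scale. The kinesins KIF23, at -0.14 (adjusted p = 0.0753), and KIF20A, at -0.09 (adjusted p = 0.311), were not called. Neither was the abscission factor CEP55, at -0.07 (adjusted p = 0.457). With the correction KIF23 was at 0.01, KIF20A at -0.10 and CEP55 at 0.07, still without a call.

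Of the 4 genes of anaphase onset, 2 were lower, 1 was higher and 1 was not called. CDC20 (ENSG00000117399), the APC/C activator that the checkpoint holds back, was found at 391 and 374 CPM in KO cells and 322 and 324 CPM in WT cells. Its KO values lay above its WT values (log2 fold change 0.24, SE 0.05, adjusted p = 0.000371), but with the length and GC correction the difference was 0.01 (adjusted p = 0.896). ESPL1, or separase, the protease that opens cohesin, was found at 94.3 and 98.5 CPM in KO cells and 120.4 and 119.7 CPM in WT cells (log2 fold change -0.32, SE 0.07, adjusted p = 0.000228). PTTG1, or securin, which inhibits separase, had a log2 fold change of -0.26, or -0.44 with the correction, although its adjusted p was 0.0525 without WT replicate 2. UBE2C, the ubiquitin-conjugating enzyme of the APC/C, was at 112 and 103 CPM in KO cells and 111 and 100.3 CPM in WT cells, and these ranges overlapped (log2 fold change 0.03, adjusted p = 0.814).

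Of the 2 transcription factors, 1 was lower and 1 was not called. MYBL2, which encodes B-MYB, was found at 158 and 159.7 CPM in KO cells and 191 and 184 CPM in WT cells and was called lower (log2 fold change -0.24, SE 0.06, adjusted p = 0.00132, but 0.063 without WT replicate 1). FOXM1, which drives late cell cycle genes, was not called, at 92.9 and 95.5 CPM in KO cells and 99.5 and 91.4 CPM in WT cells. Its values overlapped between the groups, and the 95% interval of its log2 fold change ran from -0.16 to 0.12. With the length and GC correction MYBL2 was at -0.46 and FOXM1 at -0.13 (adjusted p = 0.143).

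**Figure D3:**
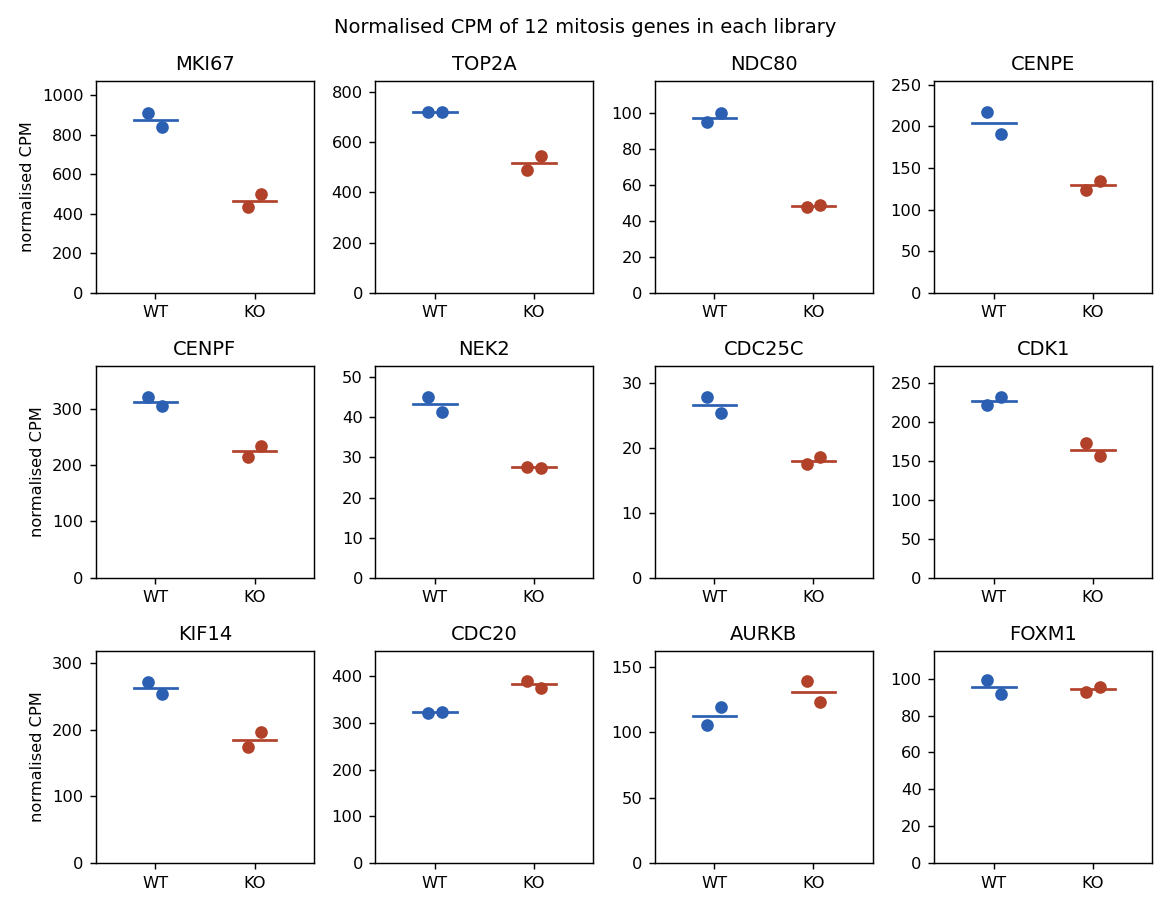
Normalised CPM (vertical axes, each from 0) of 12 mitosis genes in the 2 WT and 2 KO libraries. Points are single libraries and horizontal lines are group means. For MKI67, TOP2A, NDC80, CENPE, CENPF, NEK2, CDC25C, CDK1 and KIF14 both KO points lie below both WT points, for CDC20 and AURKB they lie above, and for FOXM1 the groups overlap.

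Per length, the mitosis genes covered a wide range of levels. In WT cells CDC20 had the highest mean level at 186 RPKM, followed by TOP2A at 128, CDK1 at 119.7, TPX2 at 111 and BUB3 at 109 RPKM. In KO cells CDC20 was again highest at 210.0 RPKM, and AURKB was next at 102 RPKM, having held place 9 in WT cells. The RPKM values of AURKB, which carry no TMM factor, overlapped, at 108.5 and 96.2 in KO cells and 86.2 and 97.9 in WT cells. The genes between CDC20 and AURKB in the WT order all had lower means in KO cells. MKI67 went from place 13 of the 48 in WT cells, at 70.6 RPKM, to place 22 in KO cells, at 35.9 RPKM. CDC25C was the least abundant in both groups, at 12.8 RPKM in WT and 8.28 RPKM in KO cells. The WT values of TPX2 and BUB3 overlapped, so their order is not resolved by these libraries.

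The fold changes varied with the base composition of the genes. Over the 48 genes, the log2 fold change and the GC content of the exons had a Pearson correlation of 0.58 and a Spearman correlation of 0.62, given as a description across genes that share the same 4 libraries. Over 11059 genes of higher expression the Pearson correlation was 0.37, so the trend was not limited to mitosis genes. The 26 mitosis genes under 45% GC had a median log2 fold change of -0.40, the 9 between 45% and 50% had -0.26, and the 13 with 50% or more had -0.11. CENPE, at 35.3% GC, was the most AT-rich and fell by 0.66 on the log2 scale, whereas CDC25B, CDC20 and AURKB, the 3 genes called higher, had GC contents of 59.3%, 57.9% and 55.6%. Other genes of like GC content were called lower. MYBL2, the most GC-rich of the 48 at 60.5%, was at -0.24, PLK1 (57.1%) at -0.21 and ESPL1 (57.0%) at -0.32.

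With offsets for gene length and GC content the correlation with GC was 0.007, and the medians of the same 3 bins were -0.22, -0.28 and -0.23. The offsets were fitted to these same libraries, so a loss of the trend with GC content was built in. They also take out any difference between KO and WT cells that tracks GC content or length across genes. The source of the trend was not tested. Under this correction 33 of the 48 genes were lower, against 15.8% of all genes tested, and the median over the 48 was -0.22. Of these 33 genes, 30 were the same as without the correction, while ASPM, BUB1B, MAD2L1 and NUF2 lost the call and CDCA8, INCENP and SPC24 gained it. None of the 48 was higher by edgeR's test after the correction, against 17.8% of all genes tested, and 1 was higher at an unadjusted p under 0.05, against 21.9% of all genes. DESeq2, without the correction, called 2 higher and 28 lower, against 14.6% and 12.7% of the 14808 genes to which it gave an adjusted p. Lower calls held in all 16 fits that were run for ANLN, BUB1, CDC25C, CDK1, CENPE, CENPF, DLGAP5, KIF14, KIF18A, MKI67, NDC80, NEK2, NUSAP1, PRC1, TOP2A and TTK. The share of all genes tested with a lower call in every fit was not worked out.

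**Figure D4:**
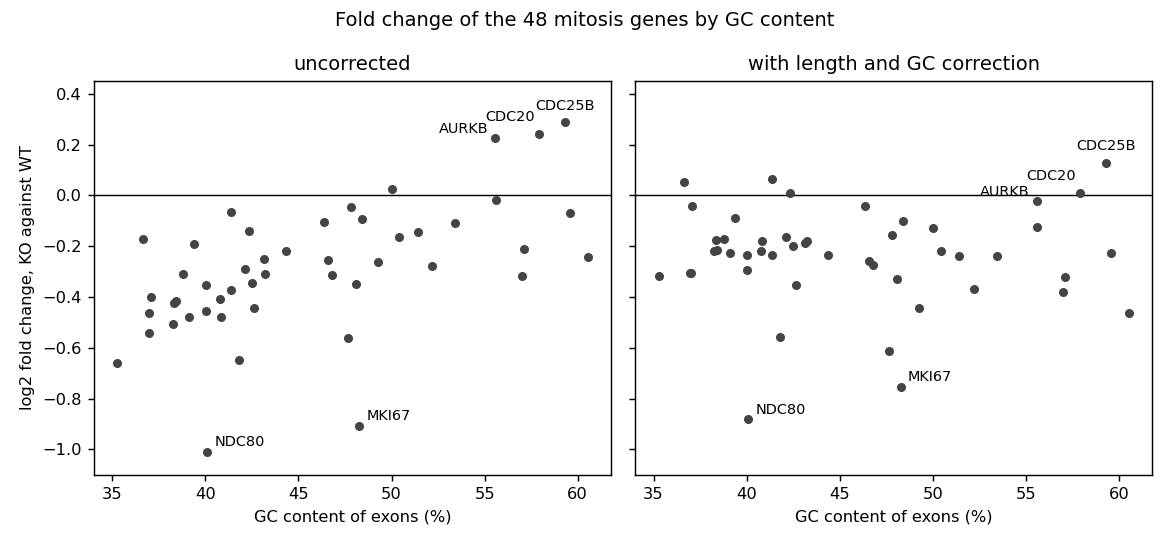
Log2 fold change of the 48 mitosis genes in KO against WT cells (vertical axis) by the GC content of their exons in percent (horizontal axis), as fitted (left) and with offsets for gene length and GC content (right). Each point is a gene. CDC25B, CDC20 and AURKB lie at the upper right on the left and near 0 on the right, while NDC80 and MKI67 lie lowest in both.

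Normalization by library totals alone lowered the values further. All genes tested then divided into 2510 higher and 3613 lower, against 3074 higher and 2891 lower with TMM factors, and among the mitosis genes 2 were higher and 39 lower, with a median of -0.37. The genes NUSAP1 and PRC1 share 68.0% and 63.9% of their 50-nt stretches with annotated readthrough genes, which are absent from the list of counted genes. KIF4A shares 14.4% of its stretches with other genes, mainly its copy KIF4B. SPC25, CDC20, BUB1B and AURKA share 9.66%, 9.03%, 8.05% and 7.91% with other genes. Reads of all these genes are therefore uncertain. FOXM1 and ITFG2 overlap on opposite strands over 15.9% of the exon bases of FOXM1, and the use of strand in counting is not given in the sources used here.

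Many promoters of these genes held the CHR, the short element bound by the DREAM and B-MYB complexes in cell cycle genes. RefSeq promoter sequences (GRCh38.p14, from 250 bases before to 50 bases after the start) matched 41 of the 48 genes. The CHR form TTTGAA was found on either strand for 29 of the 41 (70.7%), and CCAAT, the NF-Y box, for 34 (82.9%). Counted by gene in the same way, TTTGAA was found for 18.2% and CCAAT for 39.7% of all 27305 genes with a promoter, and for 13.7% and 43.1% of the 9873 tested genes among them. Counted by single promoter of the same length, the shares were 15.2% and 34.6% of 35116 promoters. TTTGAA and CCAAT can share bases, as TTTGAATTGG does. A match is only a description of these letters and does not show binding. The promoter of MKI67 is shown because MKI67 had the most negative fold change among the members outside chromosome 18, as the 120 bases before its start (chr10:128126424-128126543 on the minus strand of GRCh38.p14), where capitals mark TTTGAA and CCAAT on either strand:
MKI67: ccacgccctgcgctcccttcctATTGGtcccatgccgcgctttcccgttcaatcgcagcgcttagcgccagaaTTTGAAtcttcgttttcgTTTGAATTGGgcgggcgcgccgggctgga

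For 19 genes with a single listed start, TTTGAA lay within 70 bases before it, at a median distance of 23 bases. Windows of 30 bases centred on the element nearest to the start are shown for 10 of them, so that the shared core and the differing flanks can be compared across the range of fold changes. These are the 5 with the most negative fold changes, 3 others that were lower (PRC1, CCNB2 and PLK1), 1 that was not called (CENPA) and 1 that was higher (CDC20). Each is written 5′ to 3′ on the strand that reads TTTGAA, which is in capitals.
NDC80: aagccgttcgaaTTTGAAattctccgccgg
MKI67: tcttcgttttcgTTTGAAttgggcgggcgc
KIF18A: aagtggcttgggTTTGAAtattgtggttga
ANLN: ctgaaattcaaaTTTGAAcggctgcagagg
KIF11: tcggcgcctcaaTTTGAAaaagagacagag
PRC1: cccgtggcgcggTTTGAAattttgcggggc
CCNB2: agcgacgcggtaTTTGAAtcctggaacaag
PLK1: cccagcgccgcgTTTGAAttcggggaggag
CENPA: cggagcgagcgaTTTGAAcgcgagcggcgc
CDC20: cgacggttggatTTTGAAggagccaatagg

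These windows lie at chr18:2571542-2571571 for NDC80, chr10:128126435-128126464 for MKI67, chr11:28108149-28108178 for KIF18A, chr7:36389830-36389859 for ANLN, chr10:92593090-92593119 for KIF11, chr15:90994538-90994567 for PRC1, chr15:59105105-59105134 for CCNB2, chr16:23678848-23678877 for PLK1, chr2:26786026-26786055 for CENPA and chr1:43358904-43358933 for CDC20, all on GRCh38.p14, with the plus strand shown for ANLN, CCNB2, PLK1, CENPA and CDC20 and the minus strand for the others. The same core thus stood before genes with log2 fold changes from -1.01 for NDC80 to 0.24 for CDC20. With the form TTCGAA included, 31 of the 41 genes (75.6%) held either form, against 19.5% of all 27305 genes with a promoter. Without the length and GC correction these 31 had a median log2 fold change of -0.34, with 22 lower and 2 higher. The 10 with neither form had a median of -0.25, with 7 lower and 1 higher. For CCAAT the order of the medians was the reverse. The 34 genes with it had a median of -0.28, with 22 lower and 3 higher. The 7 genes without it had a median of -0.31, and all 7 were lower. The part of GC content in these medians was not tested. The E2F forms TTTCGCGC and TTTGGCGC were found for 2 of the 41 genes (4.9%), against 1.4% of all genes with a promoter and 2.4% of the tested genes among them. CDK1 matched 2 listed starts, and TPX2, AURKA, BUB3, FOXM1, UBE2C, TTK and BIRC5 had no entry.

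Other genes of the pathway were taken from lists that do not include the 48. Their counts stand against 19.1% lower and 20.4% higher among all genes tested. With the length and GC correction those shares were 15.8% and 17.8%. Of 21 condensin and cohesin genes, which fold chromosomes and hold sisters together, 15 were lower and 2 higher, with a median log2 fold change of -0.30, and 11 were lower and 1 higher with the length and GC correction, with a median of -0.17. SMC4, the condensin ATPase, was found at 177 and 187 CPM in KO cells and 298 and 278 CPM in WT cells (log2 fold change -0.66, adjusted p = 1.38e-11), and WAPAL, which releases cohesin, was at -0.75 (adjusted p = 4.25e-12). With the correction they were at -0.39 and -0.52. ESCO1, a cohesin acetyltransferase on chromosome 18, was lower at -0.83, while NCAPH2, a condensin subunit, was higher at 0.37 but at 0.08 and not called with the correction.

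Of 43 other centrosome and spindle genes, 20 were lower and 3 higher, with a median of -0.12, or -0.07 with the length and GC correction. KIF20B, a kinesin of late mitosis, was found at 89.3 and 99.6 CPM in KO cells and 176 and 187 CPM in WT cells (log2 fold change -0.94, SE 0.07, adjusted p = 4.16e-14), and was at -0.63 with the correction. HAUS1, an augmin subunit encoded on chromosome 18, was lower at -1.33, and CEP192, a centrosome scaffold also on chromosome 18, was lower at -0.60, or -0.36 with the correction. The tubulin genes TUBA1B and TUBB4B were higher, at 0.49 and 0.43, and RAN, the GTPase of spindle assembly, at 0.23. These 3 stayed higher with the length and GC correction, at 0.39, 0.19 and 0.32.

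Of 35 other kinetochore and checkpoint genes, 7 were lower (20%), close to the 19.1% of all genes, and 3 were higher, with a median of -0.16, or -0.04 with the correction. CASC5, or KNL1, the kinetochore scaffold of the checkpoint, was at -0.54, SGOL2, a shugoshin that protects cohesin, at -0.55, and SKA1, on chromosome 18, at -0.91, whereas MIS12 was higher at 0.34. With the correction CASC5 was at -0.21, SGOL2 at -0.28 and SKA1 at -0.81. Of 16 further regulators of entry, 6 were lower (37.5%) and 3 higher (18.75%). With the correction 3 were lower (18.75%, against 15.8% of all genes) and 2 higher. CKS2, a CDK subunit, was lower at -0.36, while PKMYT1, an inhibitory kinase of CDK1, was higher at 0.43 but at 0.07 with the correction.

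Of 15 APC/C genes, which form the ubiquitin ligase of anaphase onset, 3 were lower (20%), close to the 19.1% of all genes. A further 5 were higher (33.3%, against 20.4% of all genes), and the median was 0.02. With the correction 1 was lower (6.67%, against 15.8% of all genes) and 4 were higher. CDC27 was lower at -0.41 but at -0.12 and not called with the correction, and ANAPC15 and ANAPC11 were higher at 0.93 and 0.55, or 0.80 and 0.34 with it. Of 14 other cytokinesis genes, 7 were lower and 2 higher, with a median of -0.14. MYH10, a non-muscle myosin of the contractile ring, was found at 174 and 184 CPM in KO cells and 301 and 286 CPM in WT cells (log2 fold change -0.71, adjusted p = 1.34e-12), and ECT2, the exchange factor that activates RhoA, was at -0.63, or -0.39 with the correction.

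Among 22 MuvB, B-MYB and E2F regulators, 8 were lower and 1 higher, with a median of -0.18, and 5 were lower and 2 higher with the correction, with a median of -0.07. TFDP2, an E2F partner, and RBL2, the p130 protein of DREAM, were lower at -0.81 and -0.63. RB1 was lower at -0.40 and CDKN1A, the p21 inhibitor of cyclin-dependent kinases, was higher at 0.33, and neither was called with the correction (-0.14 and 0.13). E2F1 and E2F4 were not called, at 0.12 and 0.08. Of 43 DNA replication genes, the neighbouring programme of S phase, 12 were lower (27.9%) and 6 higher, with a median of -0.08. With the length and GC correction 15 were lower (34.9%) and 5 higher, with a median of -0.06. Over all genes tested that correction gave 15.8% lower and 17.8% higher. RRM1 and RFC5 were lower at -0.66 and -0.63, or -0.55 and -0.58 with the correction. POLD1 and LIG1 were higher at 0.51 and 0.32, or 0.23 and 0.22 with the correction.

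**Figure D5:**
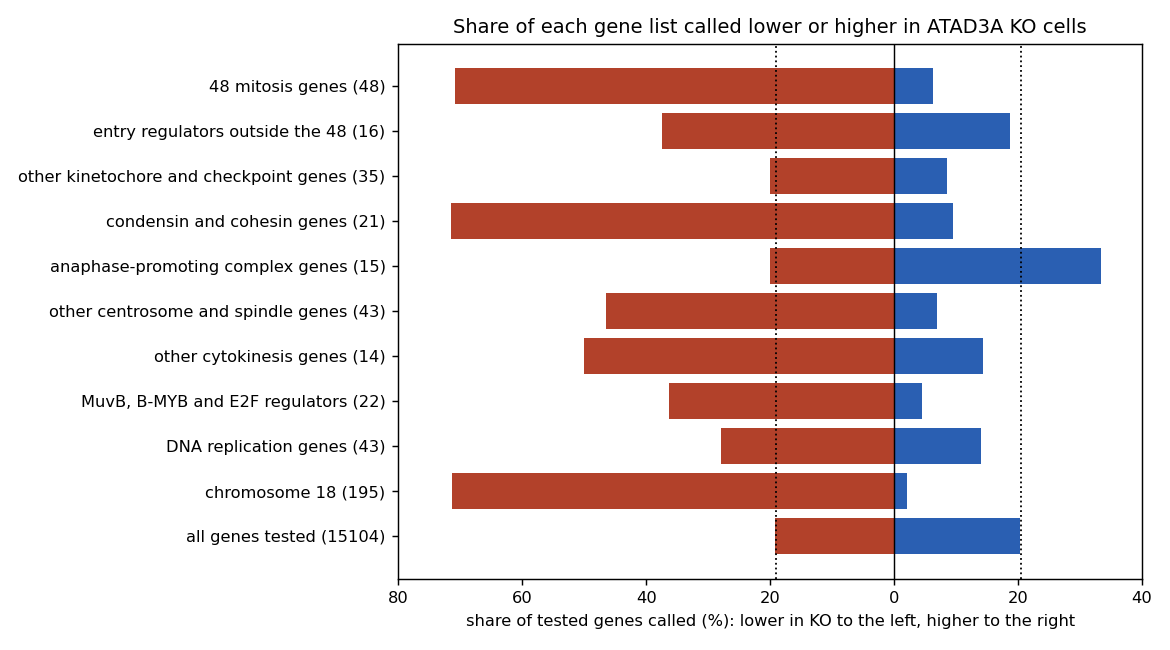
Share of the tested genes of each list that was called lower (left) or higher (right) in ATAD3A KO cells at an adjusted p under 0.05, in percent, with the number of tested genes in brackets and dotted lines at the shares of all genes, 19.1% and 20.4%. The lower share is 70.8% for the 48 mitosis genes, 71.4% for condensin and cohesin genes and 20% for other kinetochore and checkpoint genes.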

How the data were processed

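RNA was sequenced as 50-nt reads from 2 WT and 2 KO cultures of HN12 cells. The submitters' processing notes name CASAVA, STAR 2.5, HTSeq, edgeR 3.16.5, DESeq2 and the build hg19, without roles. The authors deposited raw counts for each gene, and RPKM values that equal these counts divided by gene length and library total. The annotation and the use of strand are not given in the sources used here. The members and all gene lists were chosen with earlier results of these data known.

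The deposited counts were analysed with edgeR 4.0.16 in R 4.3.3 (filterByExpr, TMM, glmQLFit and glmQLFTest over 15104 genes, two-sided, no replicate term), with Benjamini-Hochberg adjustment over all genes tested. CPM are counts scaled to library size with TMM factors, and totals were 15173766 and 13569971 for WT and 18943547 and 16805766 for KO. SE were derived from each gene's F statistic. Replicates were independent cultures and differed beyond sampling noise, with a chi-square per degree of freedom of 4.39 (KO) and 3.48 (WT).

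All 48 members may be named. From each companion list the 3 largest rises and 3 largest falls among called genes with groups that did not overlap may be named, and E2F1, E2F4, CDKN1A, RB1, ATAD3A and ATAD3B in any case. A further gene under this rule is not reported here. KRT5, ITFG2 and the readthrough or copied genes were named after their values were seen. GC content and exon overlaps came from GENCODE 29 (GRCh38), with GC content matched by identifier for 95.6% of the genes listed and for all members. Length came from the RPKM values. The length and GC correction used splines with 4 degrees of freedom as offsets. Promoters came from RefSeq (GRCh38.p14).

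Alternatives were edgeR's exact test, DESeq2 1.42.0, its size factors within edgeR, library totals, other filters, a replicate block, limma 3.58.1 on log2(RPKM + 1) and log2(RPKM + 0.1), the length and GC correction, the study's thresholds and leaving out each library. A correction for length alone was chosen after seeing the data. Statistics were tested on simulated data. SEPT2, SEPT7 and SEPT9 matched no listed symbol and were not analysed here.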

Additional observations from a re-analysis of the deposited data

How the results depend on the processing

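Over the 48 mitosis genes, 34 were lower and 3 higher, with a median log2 fold change of -0.30. The median was -0.37 with library totals only, -0.36 with limma on log2(RPKM + 1), -0.37 with limma on log2(RPKM + 0.1), -0.22 with the length and GC correction and -0.33 with the length correction only. The number of genes called higher was 0 with limma on log2(RPKM + 1), 0 with limma on log2(RPKM + 0.1), 0 with edgeR and the length and GC correction, 1 with the length correction only, and 0 at the study's thresholds. At an unadjusted p under 0.05, the first 3 of these settings gave 1, 0 and 1 genes higher. The number called lower was 16 with limma on log2(RPKM + 0.1) and 14 at the study's thresholds. Over all genes, limma on log2(RPKM + 0.1) called 1339 lower and 946 higher, against 2891 and 3074 in the main fit. Limma on log2(RPKM + 1) called 2361 lower and 1608 higher, and the length correction only called 2990 and 2919. At the study's thresholds 12.2% of all genes were lower and 17.0% higher. The cause of these differences was not tested, except that the study's thresholds add a limit on the fold. Leaving out each library in turn, with the lone library of a group assumed to vary like the others, gave medians from -0.31 to -0.27. The latter was without KO replicate 1. DESeq2 called 28 lower and 2 higher, without BIRC5, CCNB2, KIF2C, MAD2L1, NUF2, SPC25 and AURKB. Among the log2 fold changes of single genes under the alternatives, 622 kept their direction and their side of the threshold, 70 lost and 14 gained a call, and 14 turned in sign. Of these 14, the AURKB log2 fold change, called at 0.23, went to -0.0237 with the length and GC correction, and the others belonged to genes that were not called. With that correction the HMMR log2 fold change was 0.0513, the KIF23 log2 fold change 0.0103, the CEP55 log2 fold change 0.0655 and the UBE2C log2 fold change -0.1284. UBE2C, at 0.0256, also went to -0.1551 with the length correction only, -0.044 with library totals only, and -0.0429 and -0.0434 with limma on log2(RPKM + 1) and log2(RPKM + 0.1). Leaving out each library in turn, the UBE2C log2 fold change ran from -0.0434 to 0.108, the KIF4A log2 fold change from -0.2157 to 0.0264, the FOXM1 log2 fold change from -0.0785 to 0.0511 and the CENPA log2 fold change from -0.1327 to 0.049, the changes of sign falling without WT replicate 1 for KIF4A and FOXM1, without WT replicate 2 for CENPA, and without WT replicate 2 or KO replicate 1 for UBE2C.

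The replicate numbers did not pair the samples (correlation of deviations -0.06 over 11159 genes), and the fit with a replicate block gave 33 genes lower and 3 higher, without KIF2C. Over all genes that fit called 2808 lower and 3009 higher. With 2 libraries per group, precision was limited for genes of low expression such as CDC25C. For the lists of other pathway genes, 176 counts of higher or lower genes under the alternatives stayed within 1.5 times the main count and 80 did not.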
